A study of Mus musculus with 9 samples.

Results

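The nuclear genes for the proteins of the mitochondrial ribosome were followed in sorted stromal cells of the mouse liver from fetal to early postnatal life. A gene was included if its symbol begins with Mrpl or Mrps followed by a number, and 77 genes met this rule among 19938 genes on the arrays. By their symbols 48 belong to the large subunit and 29 to the small subunit. RefSeq lists 78 protein-coding genes with such symbols, and only Mrpl53 had no probe set of its own. The cells came from livers of C57BL/6 mice heterozygous for a DsRed reporter at the Cxcl12 locus (Cxcl12DsRed/+), a genotype that all groups share, and were sorted as DsRed-positive cells without the blood cell surface markers CD45 and Ter119. Livers were taken before birth, at E15.5, and after birth, at P5 and P10 (embryonic and postnatal days), with 3 Affymetrix arrays per stage. The labels speak of independent replicates but do not say how many animals each array holds. A p-value here thus sets a stage difference against the spread between arrays only, which need not be that between animals.

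Mitochondria carry their own small genome, and the few proteins it encodes are core subunits of the respiratory chain and of ATP synthase. These are made by a dedicated ribosome, the mitoribosome, whose RNA comes from mitochondrial DNA and whose proteins are all encoded in the nucleus, made in the cytosol and imported. The small subunit holds the messenger RNA and reads its codons, and the large subunit joins amino acids and passes the new chain out through an exit tunnel at the inner membrane. Part of the proteins descend from those of the bacterial ribosome and part are found only in mitochondria. The liver parenchyma is rich in mitochondria, and its oxidative metabolism matures around birth.

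The values are log2 signals, on which a difference of 1 is a doubling, and levels of different probe sets are not compared. All 77 genes lay above the median of all genes (6.83), with means over the 9 arrays between 8.07 and 12.06, so no gene was lost to a filter on low signal. The number of arrays limits the precision. Ptprc, which encodes CD45, stayed between 4.97 and 5.20 on every array. Cxcl12, the gene at the locus of the reporter, had 10.68 to 11.31 at E15.5, 9.95 to 10.31 at P5 and 10.01 to 10.31 at P10. Every postnatal array thus lay below every E15.5 array for Cxcl12. The labelled cell type is stromal, yet Alb, the albumin gene of hepatocytes, lay between 13.03 and 13.22 on all 9 arrays. Markers of several cell types moved with stage. All 6 hepatic stellate markers (Lrat, Des, Reln, Pdgfrb, Colec11 and Dcn) fell at P5 and at P10, and their summed linear signal went from 13000 to 15350 at E15.5 to 4097 to 5417 at P5 and 3251 to 4357 at P10. Of 5 measured hepatocyte markers 4 rose at P5 and 2 at P10, with a summed signal of 30100 to 31790, 37400 to 37780 and 33670 to 38110. The steepest was Cps1, the first enzyme of the urea cycle, by 4.20 ± 0.38 (log2 difference ± SE) at P5 and by 5.27 ± 0.38 at P10. Alb, Apoa1 and Ttr had stage means between 13.11 and 13.44, high in a range that ends at 14.03. Whether their probe sets could still register a rise was not tested. Cycling cell markers fell in 4 of 4 genes at P5 and in 2 at P10 (summed signal 4336 to 5069, 1962 to 2874 and 2841 to 3208). Cholangiocyte markers were highest at P5, where 3 of 4 rose (445.8 to 598.1, 1135 to 1426 and 616.8 to 643.8), and 3 of 4 mesothelial markers fell at P10 (1261 to 1409, 1751 to 2492 and 399.7 to 558.1). Of 3 measured erythroid markers Slc4a1 fell by 1.47 ± 0.25 and 1.71 ± 0.25, Alas2 rose at P10 (1.12 ± 0.09) and Klf1 did not pass. Among 5 macrophage markers Cd68 fell by 0.77 ± 0.14 and 1.09 ± 0.14, and Csf1r rose at P5 (0.19 ± 0.06). The other macrophage markers did not pass. The part of these markers in the results below was not tested. In sorted bulk RNA, a change in the share of cells of a type and a change in RNA per cell cannot be told apart. The labels name no batch, and stage cannot be told apart from one that followed it.

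Between E15.5 and P5 the mitoribosomal genes rose almost as a body. Of the 77 genes 70 were higher at P5, none was lower and 7 did not pass the test (limma, Benjamini-Hochberg adjusted p under 0.05 over all 19938 genes). Across all genes tested, 17.9% were higher and 17.7% lower. No mitoribosomal gene was lower at an unadjusted p under 0.05 either, and the lower count stayed at 0 under every alternative fit run. The median log2 difference was 0.86 (1.81-fold) against 0.03 for all genes, with a range of 0.02 to 1.86, and 27 genes at least doubled. In 72 genes every P5 array lay above every E15.5 array, as it did in 24.1% of all genes. The rise held in both subunits: 44 of 48 large subunit genes were higher with a median of 0.88, and 26 of 29 small subunit genes with a median of 0.72.

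At P10 the rise was larger and nearly complete. Compared with E15.5, 75 of the 77 genes were higher, none was lower, also at an unadjusted p under 0.05 in limma, and only Mrpl21 and Mrpl33 did not pass. Of all genes 20.1% were higher and 18.6% lower. The median log2 difference was 1.03 (2.05-fold) against 0.02 for all genes, 41 genes at least doubled, and the range was 0.11 to 2.12. In all 77 genes every P10 array lay above every E15.5 array, against 27.9% of all genes. Of the large subunit 46 of 48 genes were higher, with a median of 1.19, and of the small subunit all 29, with a median of 0.97.

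**Figure D1:**
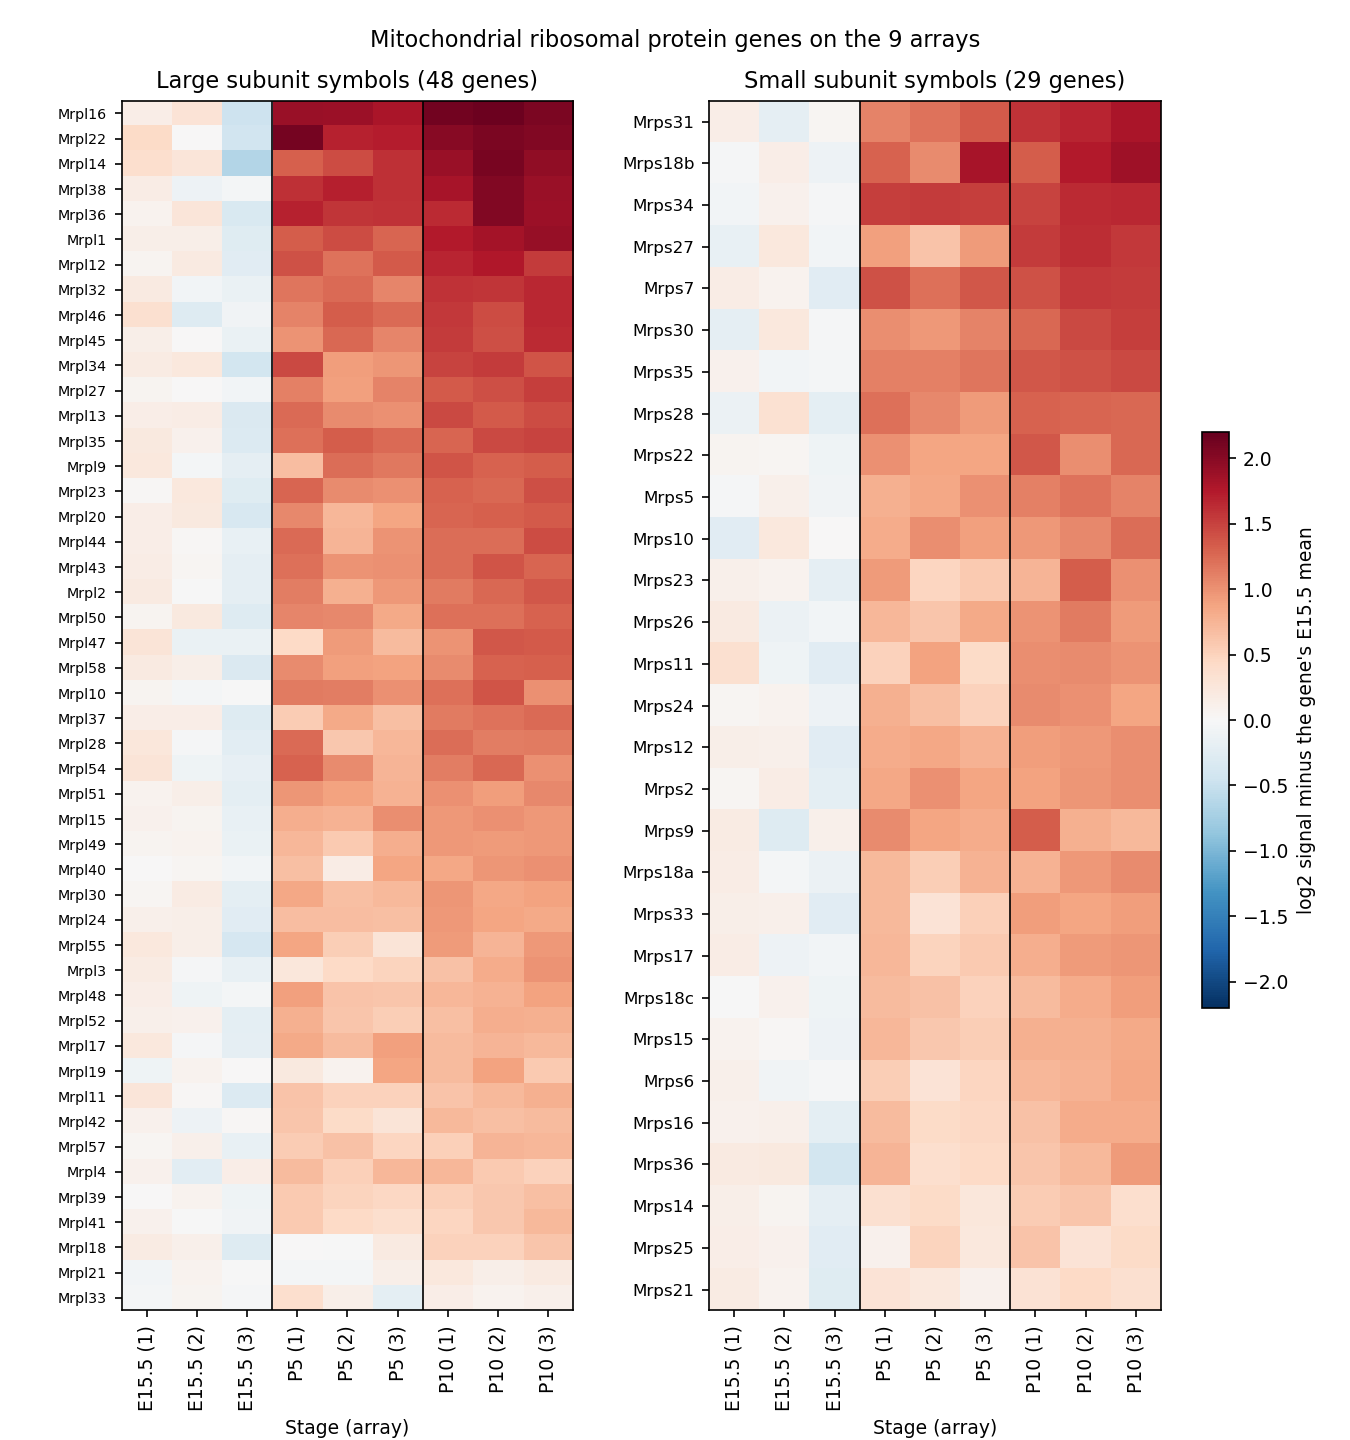
Log2 signal of each of the 77 genes on each of the 9 arrays, minus that gene's mean over the 3 E15.5 arrays (red higher, blue lower), with large subunit symbols on the left and small subunit symbols on the right, ordered by their difference at P10. Nearly every row is red on all P5 and P10 arrays, while Mrpl21 and Mrpl33 at the foot of the left panel stay pale.

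The steepest rises were in the large subunit. Mrpl16, the counterpart of a bacterial protein near the transfer RNA binding sites, had log2 signals of 8.97, 9.12 and 8.37 at E15.5, of 10.72, 10.71 and 10.61 at P5, and of 10.94, 10.98 and 10.90 at P10. The 3 stages did not overlap, and the E15.5 arrays were the most spread. Mrpl16 rose by 1.86 ± 0.17 at P5 (limma adjusted p = 5.05e-05) and by 2.12 ± 0.17 at P10 (adjusted p = 1.66e-05), the largest differences of the 77 genes. Mrpl22, whose bacterial counterpart lines the exit tunnel, had 8.96, 8.55 and 8.11 at E15.5, 10.64, 10.24 and 10.26 at P5, and 10.55, 10.62 and 10.58 at P10. Both postnatal stages lay far above E15.5 and overlapped each other. Its rise was 1.84 ± 0.20 at P5 and 2.04 ± 0.20 at P10 (adjusted p = 5.64e-05).

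Mrpl14, which sits at the face toward the small subunit and is the partner of the assembly factor Malsu1, rose by 1.46 ± 0.24 and 1.98 ± 0.24. Its E15.5 arrays were uneven, at 10.44, 10.34 and 9.43, and its standard error was the highest of the 77 genes. Mrpl38, a protein with no bacterial counterpart, rose by 1.64 ± 0.09 and 1.91 ± 0.09, and Mrpl36, a small protein of bacterial descent, by 1.62 ± 0.15 and 1.85 ± 0.15. These 5 genes were the top of the large subunit at both ages.

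In the small subunit the top genes at P10 were Mrps31, Mrps18b, Mrps34, Mrps27 and Mrps7. Mrps31, specific to mitochondria, had 9.39, 9.05 and 9.30 at E15.5, 10.35, 10.44 and 10.60 at P5, and 10.84, 10.93 and 11.04 at P10, so that the 3 stages did not overlap. It rose by 1.21 ± 0.11 at P5 and by 1.69 ± 0.11 at P10 (limma adjusted p = 4.26e-06). Mrps34, also specific to mitochondria and known from human disease of mitochondrial translation, had 9.16, 9.31 and 9.20, then 10.74, 10.77 and 10.75, then 10.71, 10.86 and 10.88. Its rise was already 1.53 ± 0.07 at P5 and stood at 1.59 ± 0.07 at P10 (adjusted p = 4.31e-07), with both postnatal stages overlapping. Mrps7, the counterpart of a bacterial protein that organises the head of the small subunit, rose by 1.32 ± 0.11 and 1.50 ± 0.11. Mrps35 was among the top 5 small subunit genes at P5 (1.14 ± 0.06) in place of Mrps27 (0.82 ± 0.12).

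Because most of these genes moved together, their promoters were read from RefSeq (GRCm38.p6), which held a window of 300 bases around the start (250 before, 50 after) for 68 of the 77. Each window was searched on both strands for 3 motifs of factors known to regulate nuclear genes of mitochondrial proteins: the NRF1 core GCGCANGCG, the ETS core CCGGAAG bound by GABP, and the YY1 core AAGATGGCG. The NRF1 core was found for 16 of the 68 genes (23.5%), in any of a gene's windows. The share was 10.5% for the 15614 genes on the array with a window, counted in the same way. Counted by window rather than by gene, it was 6.25% of all 32851 windows, which is not a like measure. The ETS core was found for 25 genes (36.8%, against 13.6% of array genes and 8.86% of windows). For the YY1 core it was 8 genes (11.8%, against 2.29% and 1.40%). At least 1 of the 3 was found for 41 genes (60.3%, against 23.2% of array genes), and no matches of different motifs overlapped. By size of rise, the median difference at P10 was 1.25 with and 0.98 without the NRF1 core, 0.92 with and 1.17 without the ETS core, and 1.10 with and 1.01 without the YY1 core. These medians hung on the letters searched. With 1 more base, C, required at the end of the NRF1 core, 13 genes matched (19.1%, against 7.85% of array genes). Their median was 1.02, against 1.01 without a match. A YY1 core longer by 1 base matched 5 genes (7.35%, against 1.49%), with medians of 1.19 and 0.99. The shorter forms were taken after these longer ones had been searched. A match describes the letters and is not a bound site.

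The following stretches run 5′ to 3′ on the strand of the gene, from 100 bases before to 20 bases after the start, with motif matches in capitals. They are shown for the genes with the largest rise at P10 (Mrpl16 and Mrpl22 of the large and Mrps31 of the small subunit), for Mrpl12 and Mrpl45, which have an NRF1 core and a known part in the ribosome's work, for Mrps27, with the largest difference from P5 to P10, and for Mrpl33, which was not called. Mrpl16 and Mrps31 have no match in their stretches, Mrpl22 has an ETS and an NRF1 core, and Mrpl33 has an ETS core. The start is that of the first window listed for each gene. For Mrpl22, Mrpl45, Mrps27 and Mrps31 it lies downstream of the first base of the gene in RefSeq. Matches, or their absence, in these stretches hold for that start only.
Mrpl16 (chr19:11770315-11770434, plus strand): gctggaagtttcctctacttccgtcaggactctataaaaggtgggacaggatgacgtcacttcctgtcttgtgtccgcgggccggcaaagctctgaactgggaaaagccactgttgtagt
Mrpl22 (chr11:58171564-58171683, plus strand): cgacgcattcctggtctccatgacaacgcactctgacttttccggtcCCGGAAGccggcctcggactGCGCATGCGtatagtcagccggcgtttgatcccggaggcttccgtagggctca
Mrpl12 (chr11:120484537-120484656, plus strand): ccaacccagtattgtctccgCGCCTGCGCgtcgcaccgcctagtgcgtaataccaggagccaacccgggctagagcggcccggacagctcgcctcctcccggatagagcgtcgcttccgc
Mrpl45 (chr11:97315616-97315735, plus strand): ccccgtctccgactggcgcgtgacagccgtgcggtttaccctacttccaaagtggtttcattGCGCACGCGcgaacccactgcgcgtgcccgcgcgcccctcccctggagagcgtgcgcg
Mrps31 (chr8:22411240-22411359, plus strand): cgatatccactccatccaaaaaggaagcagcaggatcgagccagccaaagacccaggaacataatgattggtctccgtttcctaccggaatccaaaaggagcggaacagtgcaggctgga
Mrps27 (chr13:99344686-99344805, plus strand): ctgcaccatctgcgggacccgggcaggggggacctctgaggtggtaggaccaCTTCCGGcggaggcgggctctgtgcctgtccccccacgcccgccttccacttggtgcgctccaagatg
Mrpl33 (chr5:31613851-31613970, plus strand): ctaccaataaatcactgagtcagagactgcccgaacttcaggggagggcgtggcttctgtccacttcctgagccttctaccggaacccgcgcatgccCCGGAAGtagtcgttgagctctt

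Genes with a known task in translation rose at both ages. Mrpl12 forms the stalk that recruits translation factors, and its promoter stretch above holds an NRF1 core on the reverse strand. Its mean signal went from 9.80 ± 0.23 before birth to 11.12 ± 0.11 at P5 and 11.46 ± 0.11 at P10 (SD over 3 arrays), with no overlap between the arrays of the 3 stages. It rose by 1.32 ± 0.12 and 1.66 ± 0.12 (limma adjusted p = 1.04e-05 at P10). Mrpl45, which holds the exit tunnel to the inner membrane, rose by 1.11 ± 0.10 and 1.53 ± 0.10, its arrays going from 7.60 to 7.88 at E15.5 to 9.16 to 9.38 at P10. Mrpl58, a peptidyl-tRNA hydrolase built into the large subunit that frees stalled chains, rose by 0.94 ± 0.14 and 1.22 ± 0.14. Mrpl44, related to ribonuclease III, rose by 1.00 ± 0.13 and 1.30 ± 0.13, and Mrpl37 by 0.69 ± 0.13 and 1.19 ± 0.13. Mrps12, the counterpart of the bacterial protein at the decoding site, rose by 0.81 ± 0.10 and 0.97 ± 0.10. Mrps22 rose by 0.92 ± 0.10 and 1.22 ± 0.10 and Mrps16 by 0.52 ± 0.11 and 0.76 ± 0.11, and variants of both are known from human mitochondrial disease.

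Mrpl3, a protein near the catalytic centre, was called at both ages. Its signals of 9.18, 9.38 and 9.43 at P5 lay just above those of 9.12, 8.91 and 8.78 at E15.5, a rise of 0.39 ± 0.12 (limma adjusted p = 0.0326). At P10 they were 9.59, 9.76 and 9.92, a rise of 0.82 ± 0.12, and the step from P5 to P10 did not pass (0.42 ± 0.12, limma adjusted p = 0.0873). The call at P5 was lost when any of 5 arrays was left out (E15.5 arrays 2 and 3, P5 arrays 2 and 3, P10 array 2), with differences between 0.31 and 0.39.

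The 3 descendants of the single bacterial gene for protein S18 differed in size. Mrps18b and Mrps18c are built into the small subunit, while structures place Mrps18a in the large subunit. Mrps18b rose most, by 1.38 ± 0.21 at P5 and by 1.65 ± 0.21 at P10, and its arrays were uneven at P5 (10.24, 9.98 and 10.76). Mrps18a rose by 0.67 ± 0.10 and 0.92 ± 0.10, and Mrps18c by 0.62 ± 0.08 and 0.81 ± 0.08. The differences between these 3 genes were not tested. Mrps30, which structures also place in the large subunit, rose by 1.02 ± 0.11 and 1.41 ± 0.11. With both moved there the medians at P10 were 1.19 for 50 large subunit genes and 0.99 for 26 small subunit genes. Mrps36 is left out of that count, since its product is now known as a subunit of the 2-oxoglutarate dehydrogenase complex (Kgd4). It rose by 0.75 ± 0.18 at P10 and missed the threshold at P5 (0.52 ± 0.18, adjusted p = 0.0563).

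**Figure D2:**
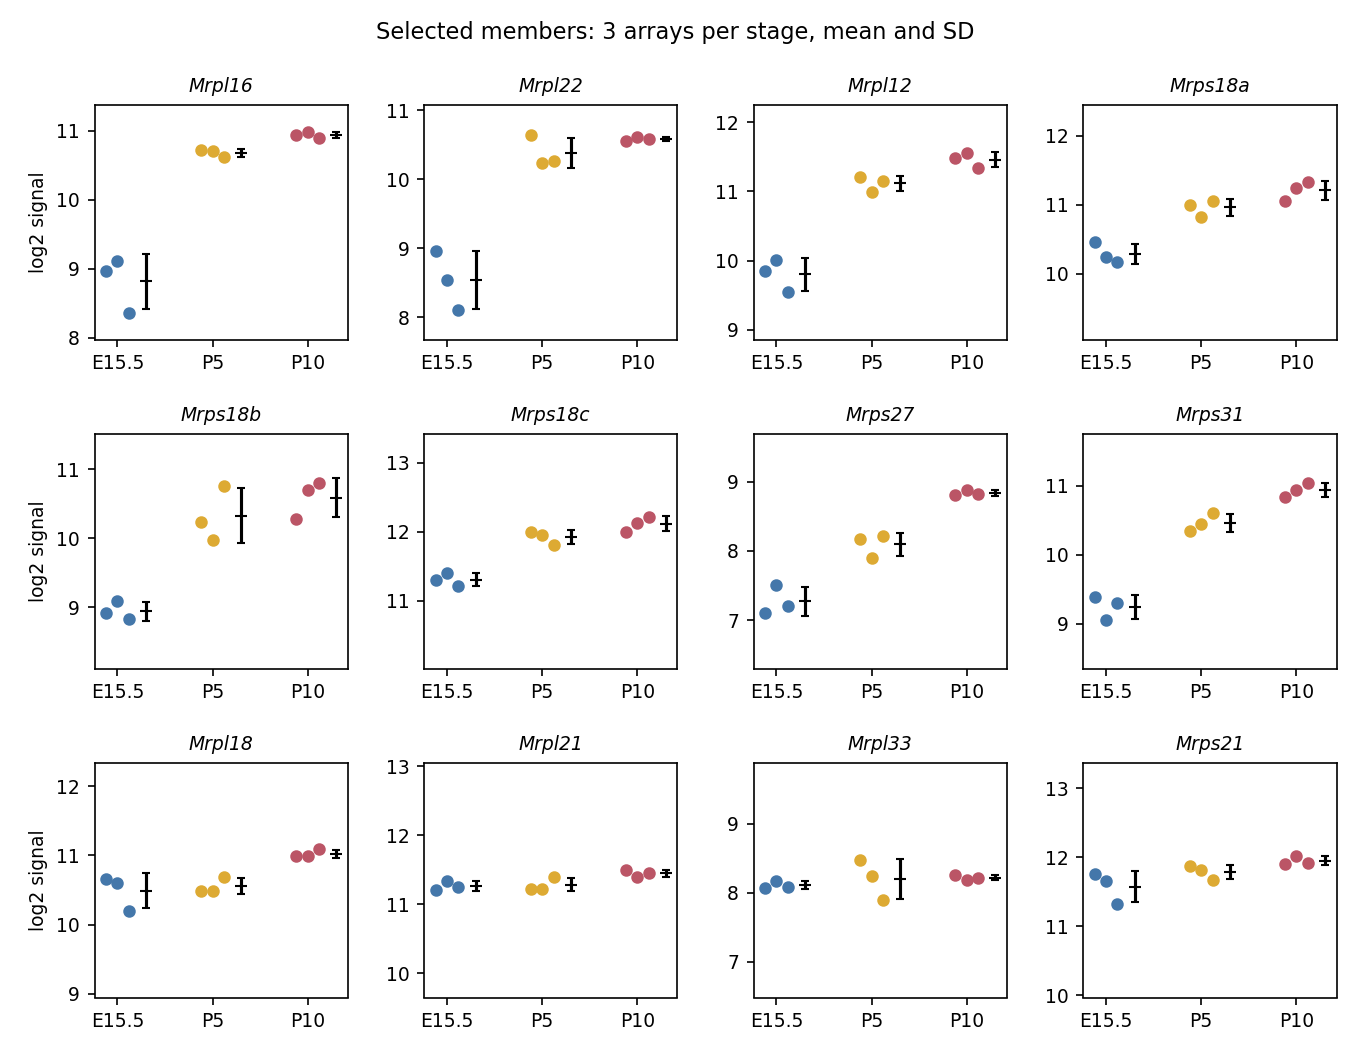
Log2 signal of 12 genes on the 3 arrays of each stage (points) with the mean and SD beside them; each panel spans the same number of log2 units, and levels are not comparable between panels. The upper 8 genes lie higher on all P5 and P10 arrays than on any E15.5 array, and the lower 4 did not pass the test at P5.

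A few genes stood outside the common rise. The 7 that did not pass at P5 were Mrpl18, Mrpl19, Mrpl21, Mrpl33, Mrps21, Mrps25 and Mrps36, and all but Mrpl21 and Mrpl33 were higher at P10. Mrpl21 and Mrpl18 were chosen after their values were seen. Mrpl21, a bacterial descendant of the large subunit, had 11.21, 11.34 and 11.25 at E15.5, 11.23, 11.23 and 11.39 at P5, and 11.49, 11.39 and 11.45 at P10. The P10 arrays lay only just above the E15.5 arrays, with a difference of 0.18 ± 0.07 (limma adjusted p = 0.0647). Mrpl33, another bacterial descendant, had 8.07, 8.17 and 8.08 at E15.5, 8.47, 8.24 and 7.89 at P5, and 8.25, 8.18 and 8.22 at P10. The P5 arrays spanned all the others, and the difference was 0.09 ± 0.13 at P5 and 0.11 ± 0.13 at P10 (adjusted p = 0.58). The sign at P5 turned to -0.05 without P5 array 1, and centring each array on all probe sets made Mrpl33 higher at P10 (0.30). Mrpl18, a protein of the central protuberance, had 10.66, 10.60 and 10.20 at E15.5, 10.49, 10.48 and 10.68 at P5, and 10.99, 10.99 and 11.09 at P10. It differed by 0.06 ± 0.12 at P5 and rose by 0.54 ± 0.12 at P10.

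Most of the rise at P10 was present at P5. Stage means rose at each step in 75 of the 77 genes, an order found in 28.2% of all genes, and Mrpl17 and Mrpl4 were the exceptions. Over the 75 genes called at P10, the P5 difference was a median of 76.3% of the P10 difference (quartiles 68.2% and 84.5%). Both differences share the E15.5 arrays, so this share is a description.

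From P5 to P10 the genes differed by a median of 0.26 on the log2 scale, against 0.00 for all genes, and 75 of 77 differences were positive. Only 7 genes passed the test (limma, adjusted p under 0.05), all higher: Mrpl1, Mrpl27, Mrpl32, Mrps27, Mrps31, Mrps35 and Mrps6. Of all genes 2.76% were higher and 2.89% lower. No mitoribosomal gene was lower, also at an unadjusted p under 0.05. In 40 genes every P10 array lay above every P5 array, against 10.6% of all genes. The medians were 0.26 for the large and 0.25 for the small subunit.

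Mrps27, a small subunit protein of the pentatricopeptide repeat family, had the largest of these differences. Its signals were 7.10, 7.51 and 7.20 at E15.5, 8.17, 7.90 and 8.21 at P5, and 8.81, 8.89 and 8.82 at P10, without overlap between stages. It rose by 0.75 ± 0.12 from P5 to P10 (limma adjusted p = 0.0106). The others were Mrpl1, the counterpart of the bacterial protein of the stalk beside the exit site of transfer RNA (0.48 ± 0.11), Mrps31 (0.48 ± 0.11), Mrpl32, which is matured by a protease of the inner membrane (0.44 ± 0.09), Mrpl27 (0.40 ± 0.08), Mrps6 (0.34 ± 0.08) and Mrps35 (0.27 ± 0.06). The count of 7 depended on single arrays. It ranged from 1 to 9 when 1 array was left out. The count fell to 4 without E15.5 array 2, and to 2 without P5 array 1, P5 array 2 or P10 array 1. It fell to 1, Mrps27, without P10 array 2 or P10 array 3. In the fits with 1 array left out, 1.25% to 4.02% of all genes were higher from P5 to P10.

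The P5 arrays were themselves uneven in markers of another cell type. The mean log2 signal of 5 sinusoidal endothelial markers (Stab2, Pecam1, Kdr, Lyve1 and Oit3) was 8.12 and 8.50 on P5 arrays 2 and 3, 6.55 on P5 array 1, and between 6.71 and 7.22 on the E15.5 and P10 arrays. The summed linear signal of these markers was 562.6 to 693.2 at E15.5, 491.7 to 2111 at P5 and 601.1 to 837.4 at P10. With P5 array 1 as the only P5 array, a check added after the data were seen, 65 of the 77 genes were higher at P5 than at E15.5 with a median of 0.85, none was called between P5 and P10 by limma (17 higher and 1 lower at an unadjusted p under 0.05), and the median of that step was 0.17. In that fit the lone array is assumed to vary like those of the other stages. The mean over the 77 genes on P5 array 1 was 10.37, against 10.28 and 10.30 on the other P5 arrays.

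Array by array, the mean over the 77 genes was 9.58, 9.52 and 9.29 at E15.5, 10.37, 10.28 and 10.30 at P5, and 10.53, 10.59 and 10.60 at P10, so the stages did not overlap. E15.5 array 3 was the lowest E15.5 array for 57 of the 77 genes, and for 39.5% of all genes. Without it 64 genes were higher at P5 and 73 at P10, and the large subunit median at P10 was 1.05. In that fit 15.1% and 17.3% of all genes were higher at P5 and at P10. The arrays also differed in the Y-linked gene Eif2s3y, which lay between 7.94 and 9.24 on E15.5 array 3, P5 arrays 2 and 3 and P10 array 1, and between 3.96 and 4.14 on the others. Within each stage the arrays with the high signal had the lower mean over the 77 genes. With Eif2s3y as a covariate, added after the data were seen, 71 genes were higher at P5, 74 at P10 and 2 from P5 to P10. Of all genes 16.9%, 19.7% and 2.04% were higher in that fit. The large subunit mean minus the small subunit mean was 0.07, 0.00 and -0.07 at E15.5, 0.12, 0.10 and 0.08 at P5, and 0.10, 0.09 and 0.09 at P10. The gap was thus larger on all 6 postnatal arrays than on any E15.5 array. Its sign and size rest on levels of different probe sets, so only its change between arrays can be read. The large and small subunit were not tested against each other.

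**Figure D3:**
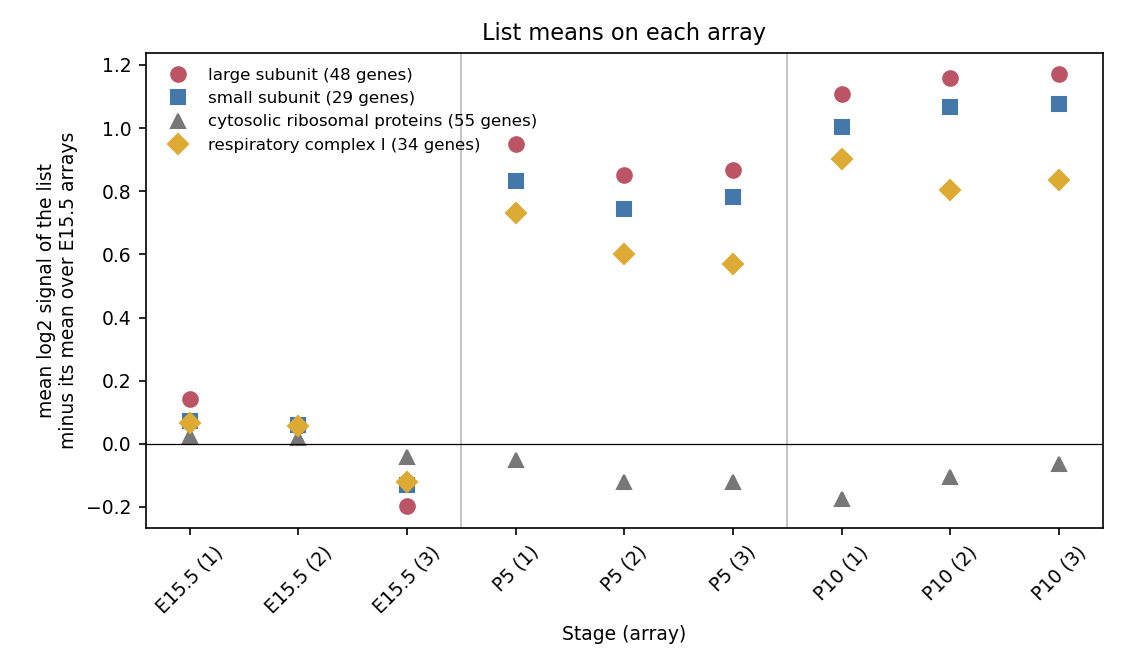
Mean log2 signal of the large and small mitoribosomal subunit, the cytosolic ribosomal proteins and respiratory complex I on each of the 9 arrays, minus the list's mean over the 3 E15.5 arrays. Both subunits and complex I stand higher on all P5 and P10 arrays, and the cytosolic ribosomal proteins stay within 0.2 of 0.

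Genes of both descents rose. At P10, 46 of the 48 genes with a bacterial counterpart were higher (median 0.99), as were all 28 found only in mitochondria (median 1.16). At that age 20.1% of all genes were higher. With subunits taken from the symbols, the order of the medians differed between them. In the large subunit the median was 1.25 for 30 genes of bacterial descent and 1.06 for 18 specific to mitochondria. In the small subunit it was 0.95 for 18 and 1.31 for 10, with Mrps18a and Mrps30 counted there. Differences between these lists were not tested.

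Most genes for the cytosolic ribosome did not pass the test, and neither did 12849 of all 19938 genes at P5 and 12222 at P10. Across all genes, 17.9% were higher and 17.7% lower at P5, and 20.1% and 18.6% at P10. Of 55 measured genes for cytosolic ribosomal proteins 1 was higher (Rpl34) and 3 lower (Rpl12, Rpl30 and Rps15a) at P5, and 1 was higher and 4 lower at P10. The mean of these genes was 12.38 to 12.57 on the 9 arrays, high in a range that ends at 14.03, and whether their probe sets could still register a rise was not tested. The 4 genes called at P5 lay lower, with E15.5 means between 7.43 and 11.11. The median differences of the list were -0.05 and -0.06 in the deposited values, and 0.08 and 0.13 when each array was centred on all probe sets, a scaling that moved the median of all genes to 0.15 and 0.22. In that case 9 were higher and 2 lower at P5, and 18 and 2 at P10, while 36.7% and 53.1% of all genes were higher. After quantile normalisation none was higher and 8 were lower at P5, and 1 was higher and 10 lower at P10. In the deposited values the largest difference of the list was that of Rpl12, which fell by 1.81 at P5 and by 1.89 at P10. The median of the mitoribosomal genes lay 0.83 above that of all genes at P5 and 1.01 above it at P10, and 0.68 and 0.81 above it after quantile normalisation. Centring each array adds the same constant to every gene and so cannot change this distance.

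Genes of the wider apparatus of mitochondrial translation were counted in the same way, and were not tested against the mitoribosomal genes. Among 4 measured mitoribosomal proteins with other names, Gadd45gip1, a large subunit protein, rose by 0.91 ± 0.12 and 1.09 ± 0.12, and Dap3, which binds GTP in the small subunit, by 0.37 ± 0.10 and 0.96 ± 0.10. Chchd1 (0.37 ± 0.14 at P10) and Ptcd3 (0.27 ± 0.15) did not pass. Of 26 genes for assembly and modification of mitochondrial ribosomal RNA, 15 were higher and 2 lower at P5, and 18 and 1 at P10. Across all genes, 17.9% were higher and 17.7% lower at P5, and 20.1% and 18.6% at P10. Mettl15, a methyltransferase of the small subunit RNA, rose by 0.87 ± 0.15 and 1.88 ± 0.15, the helicase Ddx28 by 1.51 ± 0.20 and 1.59 ± 0.20, and the dimethyltransferase Tfb1m by 1.40 ± 0.20 and 1.39 ± 0.20. Fastkd2 fell by 0.62 ± 0.11 at P5, and the helicase Dhx30 fell by 0.28 ± 0.06 at P5 and by 0.21 ± 0.06 at P10.

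Across all genes, 17.9% were higher and 17.7% lower at P5, and 20.1% and 18.6% at P10. Of 15 translation factors 9 were higher and 1 lower at P5, and 10 and 1 at P10. The elongation factors Gfm1 (1.28 ± 0.12 and 1.96 ± 0.12) and Tufm (1.38 ± 0.11 and 1.40 ± 0.11) rose, as did the recycling factor Mrrf (1.41 ± 0.10 and 1.73 ± 0.10). Guf1, the homologue of the bacterial GTPase LepA, fell by 0.66 ± 0.09 and 0.48 ± 0.09. Of 19 genes that charge mitochondrial transfer RNA 8 were higher at P5 and 11 at P10 with none lower, led by Gatb (1.86 ± 0.16 at P10), a subunit of the glutamyl-tRNA amidotransferase, and Fars2, the phenylalanine enzyme (1.65 ± 0.12). Of the 19 genes 1 was lower at P5 at an unadjusted p under 0.05, and none at P10.

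Nuclear genes of the respiratory chain, of ATP synthase and of protein import were mostly higher. Of all genes 17.9% were higher at P5 and 20.1% at P10. Of 34 genes of respiratory complex I, 28 were higher at P5 and 31 at P10, with medians of 0.65 and 0.90. Of 37 genes of complexes II to IV and ATP synthase, 35 and 36 were higher, with medians of 0.49 and 0.62, and Sdhd, an anchor subunit of complex II, which holds no subunit made by the mitoribosome, reached 2.00 ± 0.15 at P10. Of 25 import and porin genes 18 and 21 were higher, among them the matrix chaperone Hspa9 (1.26 ± 0.07 at P10). None of these 3 lists held a gene that was lower, also at an unadjusted p under 0.05 in limma. Differences between these lists and the mitoribosomal genes were not tested.

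**Figure D4:**
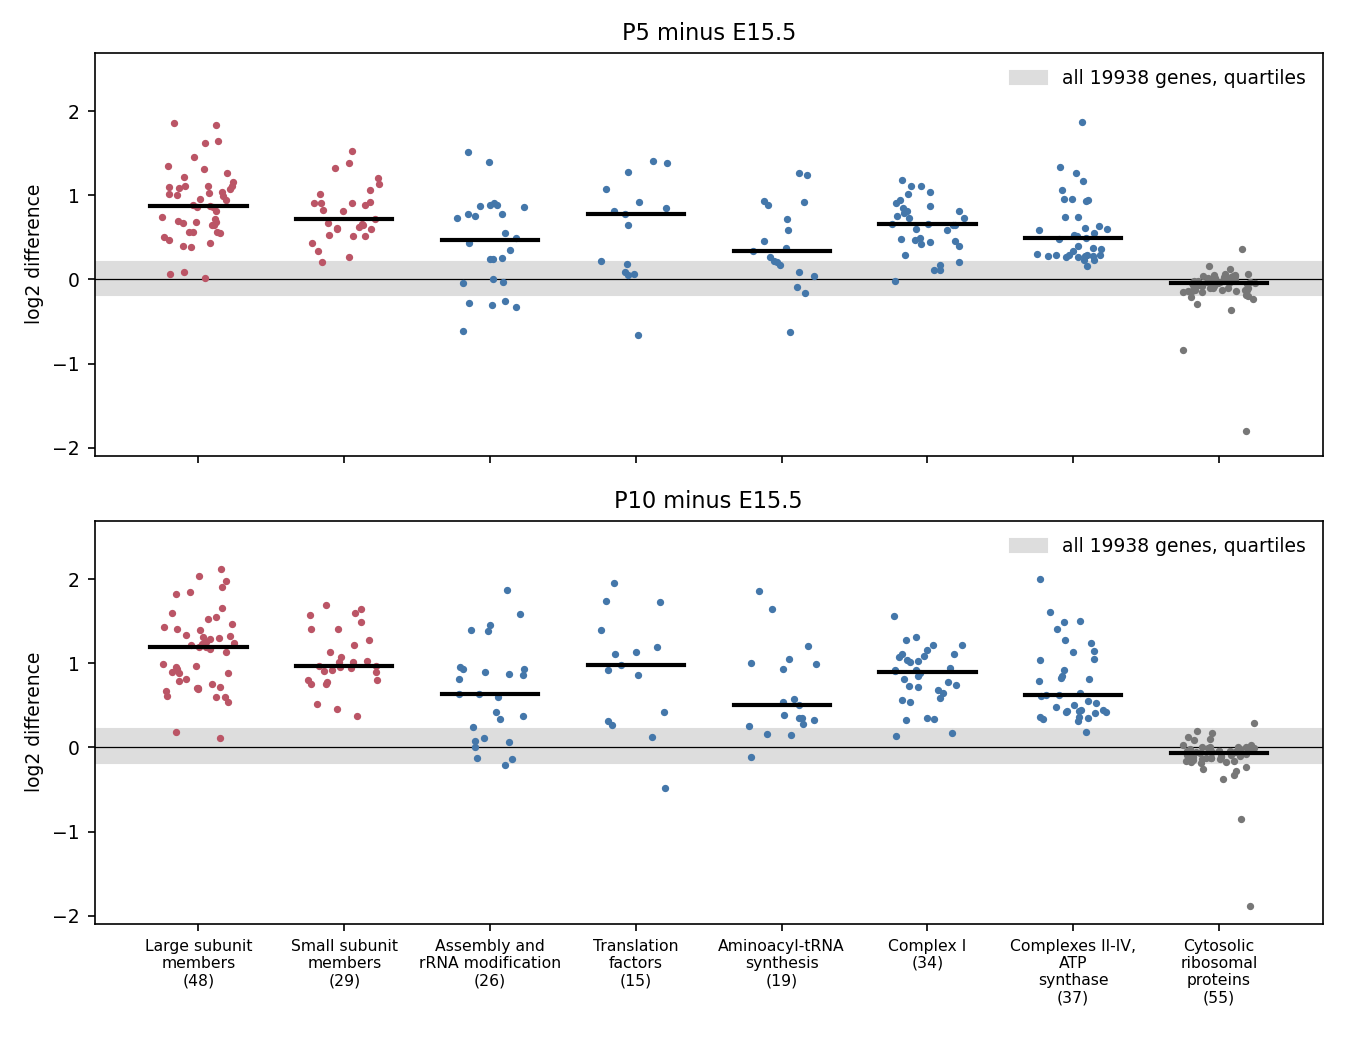
Log2 difference of each gene (points) from E15.5 at P5 (top) and P10 (bottom) by list, with the list median as a black bar, the number of genes in brackets and the quartiles of all 19938 genes in grey. Both mitoribosomal subunits, complex I and complexes II to IV with ATP synthase lie mostly above the grey band, and the cytosolic ribosomal proteins lie mostly inside it.

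Regulators moved in both directions. Of 9 listed, Ppargc1a, the coactivator that drives mitochondrial gene programmes, had 7.53, 7.61 and 7.89 at E15.5, 9.58, 8.85 and 8.91 at P5, and 9.85, 9.39 and 9.20 at P10. All its postnatal arrays lay above E15.5, and it rose by 1.44 ± 0.23 and 1.81 ± 0.23 (limma adjusted p = 0.000289 at P10). Ppargc1b and Gabpa, the DNA-binding subunit of GABP, rose at P10 by 0.58 ± 0.09 and 0.27 ± 0.09. Gabpb1, for another subunit of GABP, did not pass at either age (0.15 ± 0.22 at P5 and -0.42 ± 0.22 at P10). Nrf1 fell by 0.38 ± 0.10 at P5 and by 0.51 ± 0.10 at P10, the related coactivator Pprc1 fell by 0.99 ± 0.18 and 0.92 ± 0.18, and Myc fell by 1.10 ± 0.19 at P5. Yy1 and Esrra did not pass at either age. Genes for the upkeep and transcription of mitochondrial DNA were higher in 4 of 11 cases at P5 and in 7 at P10 (17.9% and 20.1% of all genes), none lower, also at an unadjusted p under 0.05. They included the topoisomerase Top1mt (2.22 ± 0.15 and 2.15 ± 0.15) and Tfam, which packs mitochondrial DNA (0.48 ± 0.09 and 1.06 ± 0.09).

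Some mitoribosomal genes start beside another gene that is read in the opposite direction. How common this is among all genes was not counted. In RefSeq, promoter windows of opposite strands overlapped for 24 of the 68 genes with a window, and 20 of the neighbours were measured and are not mitoribosomal. Mrpl48 and its neighbour Rab6a overlap at their starts (distance -36 bases). Of these 20, 8 were higher at P10, 2 were lower and 10 did not pass, where 20.1% of all genes were higher and 18.6% lower. Their median difference was 0.08, while that of the mitoribosomal genes beside them was 1.16. The pairs named here were chosen after their values were seen. Mrpl27 rose by 1.43 while its neighbour Eme1, an endonuclease gene, fell by 0.55 ± 0.14, and Mrpl14 rose by 1.98 while Tmem63b differed by 0.04 ± 0.17. The neighbours with the largest rises were Ptcd2, Sars2 and Klc4. Ptcd2, of the pentatricopeptide repeat family, rose by 1.36 ± 0.14 beside Mrps27 (1.57), and Sars2, the mitochondrial seryl-tRNA synthetase gene, by 1.05 ± 0.16 beside Mrps12 (0.97). Klc4, a kinesin light chain gene, rose by 0.91 ± 0.09 beside Mrpl2 (1.26).

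Mrpl46 and Mrps11 form a pair with a member of each subunit on either side of 1 short interval, shown on the strand of Mrps11 and without a match to the 3 motifs.
Mrpl46 to Mrps11 (chr7:78783090-78783130, plus strand): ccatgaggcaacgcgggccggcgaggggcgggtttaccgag
Mrpl46 rose by 1.22 ± 0.15 at P5 and by 1.55 ± 0.15 at P10, and Mrps11 by 0.60 ± 0.17 and 1.01 ± 0.17. Signals of Mrps11 were 9.11, 8.67 and 8.52 at E15.5, 9.27, 9.66 and 9.18 at P5, and 9.79, 9.81 and 9.75 at P10, without overlap between stages.

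**Figure D5:**
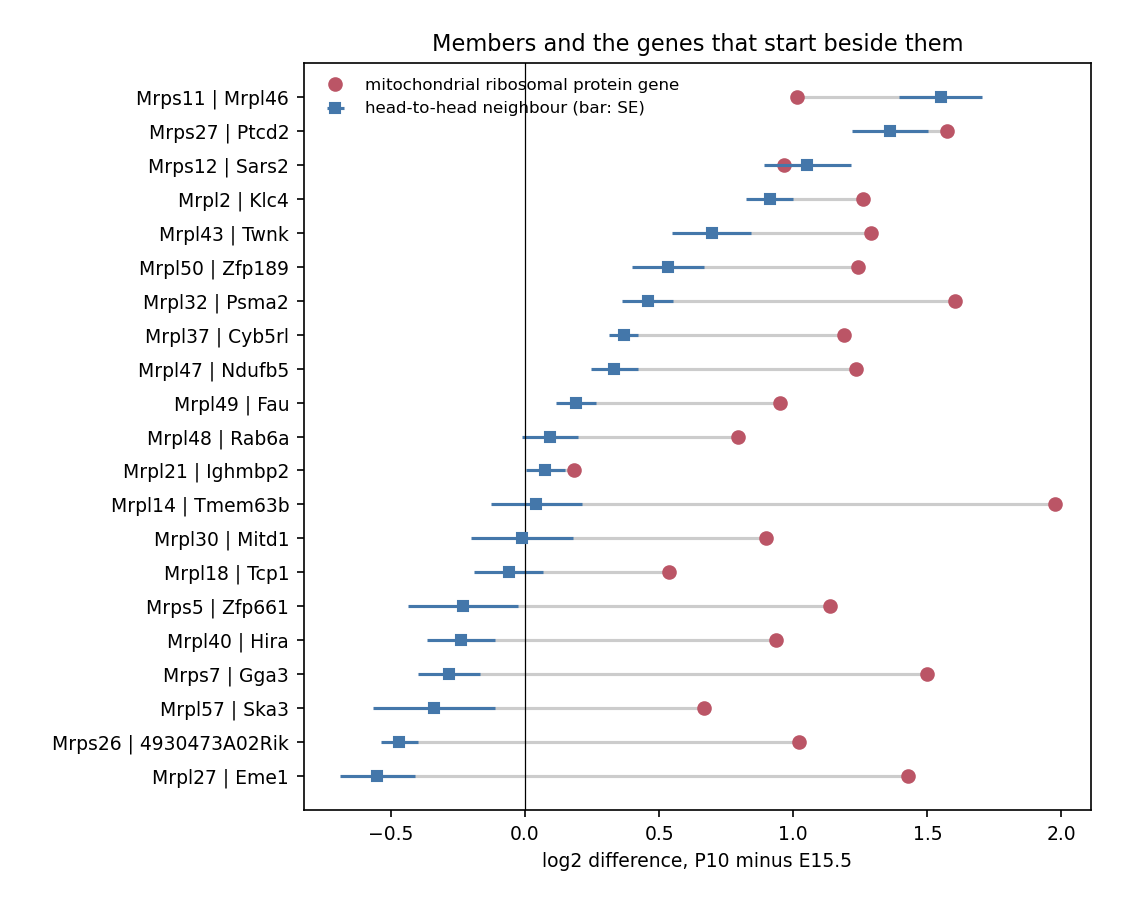
Log2 difference between P10 and E15.5 for mitoribosomal genes (circles) and the gene that starts beside each on the opposite strand (squares, with the SE); the top pair, Mrps11 and Mrpl46, holds 2 mitoribosomal genes. The circles lie right of the squares in all pairs but those of Mrps11 and Mrps12.

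The 8 genes with several probe sets stood higher at P5 and P10 by each of them, and for Mrpl27 the one not used gave a larger rise at P10 (1.81, against 1.43). Mrpl51, one of the 2 genes with the highest signal, rose by 0.87 ± 0.10 and 0.99 ± 0.10, and its other probe set gave 1.17 and 1.02, but from P5 to P10 the 2 probe sets differed in sign (0.12 and -0.15). Mrpl23, Mrpl27, Mrpl48 and Mrps36 have pseudogenes in RefSeq whose transcripts could share their probes, so their values are uncertain to that extent. The probe sets used for Mrpl27, Mrpl41, Mrpl48, Mrpl51 and Mrps33 carry numbers outside the run of the other mitoribosomal genes on their chromosomes. Whether they report copies elsewhere in the genome was not tested.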

How the data were processed

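Trizol was used to extract RNA, which was turned into biotinylated cRNA, per the labels' protocols. The deposited values are log2 signals made by the authors with RMA, per the submitters' processing notes, which list 2 programs besides, Affymetrix Expression Console and version 2.0 of Transcriptome Analysis Console. The method corrects background, normalises between arrays and summarises each probe set. No label or header names the genome build of the probes. Of 35556 probe sets 21789 had 1 gene symbol, updated by Entrez identifier, and each gene took the probe set with the highest mean over the 9 arrays. Stages were compared with limma 3.58.1 (R 4.3.3, lmFit and eBayes, 2-sided, 6 residual degrees of freedom) over all 19938 genes without a filter or further scaling; SE is the moderated standard error. In a simulated comparison of P5 with E15.5 over 19938 genes, 158 of 200 genes changed by 1 log2 unit were recovered with 14 false calls. Only these 200 genes were changed there, with noise drawn separately for each gene. In the data 3560 genes were called higher and 3529 lower at P5, so the recovery need not carry over. Named genes were the largest called differences per subunit and comparison, the highest and lowest signals, and genes of known role. The genes and lists were chosen with earlier results of these data known. Alternatives were 3 other scalings, a floor and a filter at percentile 30, other rules for probe sets, symbols, variance and samples, a replicate block, leaving out each array and, added after the data were seen, a sex-linked covariate and P5 array 1 alone.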

Additional observations from a re-analysis of the deposited data

Results flagged for a closer look

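One signal lay outside the 77 genes. The only probe set for Mrpl53 is shared with Ccdc142, so it was left out of the gene comparisons. It stood higher by 0.27 at P5 and by 0.32 at P10 on the log2 scale, above the E15.5 level on every P5 and P10 array, and which of the 2 genes it reports cannot be told apart. Its signals were 7.61, 7.48 and 7.46 at E15.5, 7.79, 7.76 and 7.79 at P5, and 7.79, 7.82 and 7.90 at P10.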

How the results depend on the processing

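The counts of mitoribosomal genes higher at P5 (64 to 69) and P10 (73 to 75) with 1 array left out stayed near 70 and 75, and none was lower in any alternative. With 1 array left out, the share of all genes called higher ran from 15.1% to 18.5% at P5 and from 17.3% to 20.6% at P10. Scaling moved sizes. The small subunit median at P5 became 0.85 centred on all probe sets, 0.82 centred on cytosolic ribosomal proteins and 0.82 with the sex-linked gene Eif2s3y as a covariate. At P10 the large and small subunit medians became 1.04 and 0.84 after quantile normalisation, 1.39 and 1.17 centred on all probe sets, and 1.31 and 1.09 centred on cytosolic ribosomal proteins. The large subunit median at P10 ran from 1.05 to 1.27 with 1 array left out. The median of all genes shifted with these scalings to 0.12, 0.15 and 0.13 at P5 and 0.15, 0.22 and 0.14 at P10, and the share of higher among called genes went from 50.2% to 64.1%, 71.5% and 63.0% at P5, from 51.8% to 69.4%, 78.9% and 65.4% at P10, and from 48.8% to 63.0% between P5 and P10 when centred on all probe sets.

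From P5 to P10, 2.37% of all genes were higher after quantile normalisation, 3.92% centred on all probe sets and 2.44% with a trended and robust prior. This share was 2.04% with Eif2s3y and 1.25% to 4.02% with 1 array left out. The 7 mitoribosomal genes higher from P5 to P10 were the least stable result. The count was 3 after quantile normalisation, 12 centred on all probe sets, 3 with a trended and robust prior, 2 with Eif2s3y, 0 with P5 array 1 alone, and 1 to 9 with 1 array left out; the large subunit median was 0.16 with P5 array 1 alone. Mrps27 was called in all of these but P5 array 1 alone. The sign of Mrpl33 turned at P5 (-0.047 to 0.25 with 1 array left out) and between P5 and P10 (-0.14 to 0.15 with 1 array left out, -0.001 without P10 array 1, -0.040 with Eif2s3y, -0.26 with P5 array 1 alone), and that of Mrpl51 between P5 and P10 (-0.013 as a mean of probe sets). The cause was not tested.

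Replicate numbers did not pair the arrays: over 9 same-numbered pairs, deviations from stage means correlated between -0.080 and 0.069, none over 0.1. With the replicate block 69, 74 and 2 genes were higher in the 3 comparisons. Of all genes 17.3%, 19.3% and 2.05% were higher in that fit. Low signals near background limit small differences, and none of the 77 genes lay there.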
